A study of Mus musculus with 4 samples.

Results

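The genes described here encode the ion channels that set neuronal excitability: the voltage-gated sodium channels (pore subunits and beta subunits), the voltage-gated calcium channels (the pore subunits named Cacna1, the alpha2delta subunits named Cacna2d and the beta subunits named Cacnb) and the HCN channels. These families were chosen with earlier results of these data known. Within them the members were taken by gene symbol alone, and no measured value entered that step. Every probe set with a single gene symbol of these families in the platform annotation was included. This gave 72 probe sets of 29 genes, out of 45037 probe sets and 18193 named genes on the array. Of these, 49 probe sets of 22 genes passed the filter on dim signals, and 23 probe sets did not, which left 7 genes without a usable value. Other members of these families were not analysed here.

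Total RNA came from hippocampi of mouse pups at postnatal day 2, dissected by hand and frozen. The arrays labelled wildtype (2, littermate controls) were compared with those labelled ZBTB20 knockout (2), to find genes that depend on this zinc finger transcription factor in hippocampal development. The labels name no strain, sex, Cre line or promoter, and do not say how the gene was disrupted or whether an array held 1 pup or a pool. No label says that the arrays stand for different animals, so a p-value measures only the spread between these arrays, which may be technical.

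Sodium channels open on depolarization and carry the upstroke of the action potential, while calcium channels turn that depolarization into calcium entry, which triggers transmitter release and gene regulation. HCN channels open on hyperpolarization and set resting potential and rhythmic firing. In the postnatal hippocampus the expression of many of these genes climbs as neurons mature, and the beta and alpha2delta subunits govern how many pores reach the membrane.

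The 4 arrays came on different scales, which had to be dealt with before any gene could be compared. The trimmed mean signal was 497 on both replicate 1 arrays, and 158 (control) and 156 (knockout) on the replicate 2 arrays, so same-numbered arrays shared a scale that held 1 array of each group. Each difference is therefore given within a pair of same-numbered arrays, as knockout minus control on the scale log2(signal + 32.56), where it understates the change of dim genes and carries no p-value. The replicate 1 arrays also carried liver transcripts: 8 liver genes summed to 56382 (control) and 19134 (knockout) in replicate 1 but to 325 and 333 in replicate 2. All 7 neuronal markers (among them Tubb3, Stmn2 and Snap25) and all 9 markers of hippocampal pallium (among them Neurod6, Lhx2, Prox1 and Zbtb20 itself) passed the filter, and no marker signal lay at or below 1. Zbtb20 itself did not check the labels. Its probe set 1443471_at had a signal of 4939 (control) and 2412 (knockout) in pair 1, but 284 and 592 in pair 2, and the sources used here do not say where its 9 probe sets lie relative to the disrupted part. None of the 9 was lower in the knockout in both pairs. Every direction below therefore follows the labels as given, and would turn in a pair whose labels were exchanged.

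No channel gene passed the test between the labelled groups. In limma's test without a block, 0 of 22 channel genes passed an adjusted p of 0.05, against 0% of 12581 genes tested, and no channel gene was below 0.05 before adjustment (0 of 22, and 0% of all genes). Without the block the scale difference between replicate numbers enters each SE, which ran from 0.93 to 1.92 for channel genes. That fit could thus hardly call a gene, and its 0 says little about genotype. With the block the SEs ran from 0.15 to 0.52. A block for the replicate number left limma's count at 0 of 22 (0% of all genes), and before adjustment 0 channel genes were below 0.05, against 1.16% of all genes. The smallest unadjusted p of a channel gene in the blocked fit belonged to Scn9a (0.081, adjusted p = 0.9999). The signals of the groups overlapped for all 22 genes, and did not for 2.73% of all genes, but each scale holds 1 array of each group, so this overlap says little about genotype.

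**Figure D1:**
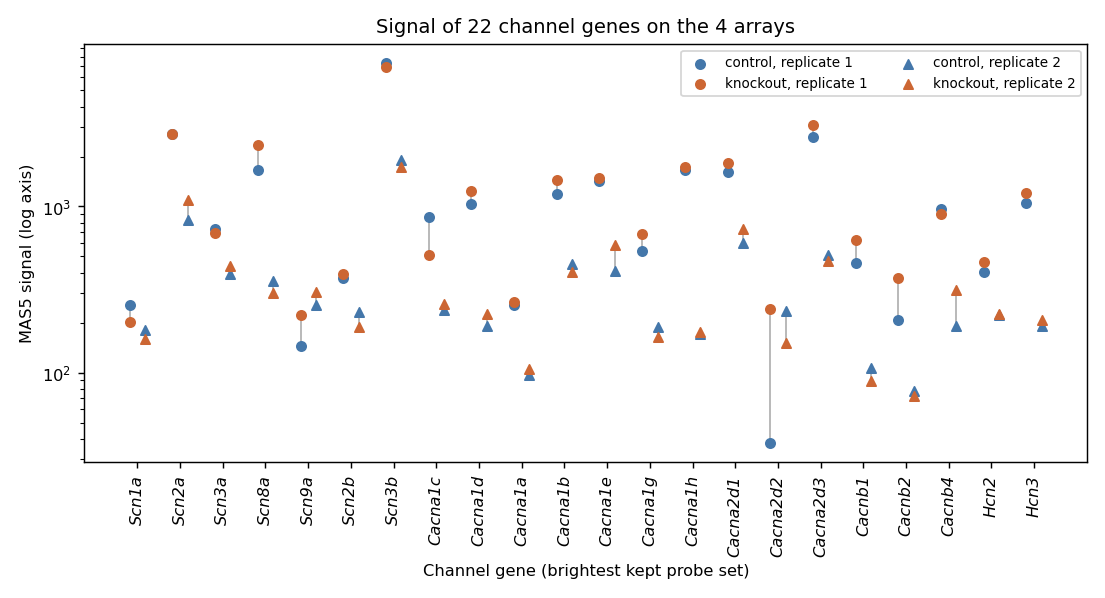
MAS5 signal on a log axis for each of the 22 channel genes, by its brightest probe set; circles are replicate 1 and triangles replicate 2, blue control and orange knockout, and a grey line joins the arrays of a pair. Most lines are short, and the long one belongs to Cacna2d2 in replicate 1 (37.5 against 241).

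Within pairs the channel genes mostly lay close together. The median difference was 0.18 in pair 1 and 0.02 in pair 2, against -0.01 and -0.00063 over all genes tested. The median size of the difference, with the sign ignored, was 0.20 and 0.17 for the channel genes and 0.21 and 0.12 for all genes. In pair 1, 17 of 22 channel genes were higher in the knockout array, where 48.6% of all genes were. In pair 2, 12 of 22 were higher, where 49.8% of all genes were. The pairs went in opposite directions for 11 of 22 genes, against 53.5% of all genes. Of these, 8 had the higher knockout in pair 1 only (26.1% of all genes), and 3 in pair 2 only (27.4% of all genes). The knockout was higher in both pairs for 9 channel genes (22.4% of all genes) and lower in both for 2 (24% of all genes). Were the labels of 1 pair exchanged, which was not tested, the 11 genes of opposite sign and the 11 of equal sign would trade places. When probe sets were averaged per gene, 14 of 22 were higher in each pair, where the medians over all genes were -0.02 and 0.0056. Over the 22 genes, which share these arrays, the pair 1 and pair 2 differences had a Pearson's r of -0.50 and a Spearman's rho of -0.42, given as a description (-0.24 and -0.16 over all genes).

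**Figure D2:**
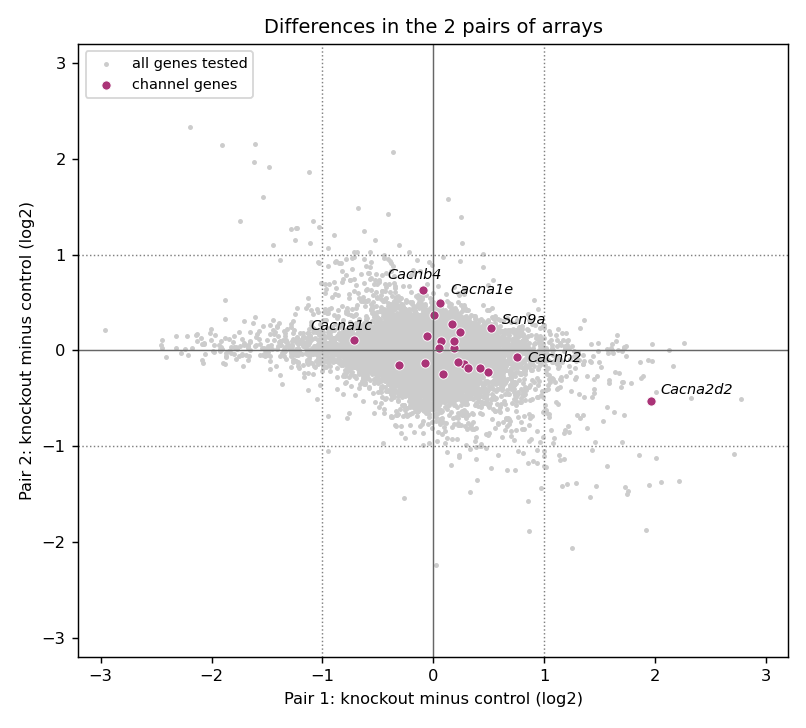
Difference between knockout and control in pair 1 (horizontal axis, log2) against pair 2 (vertical axis, log2) for all 12581 genes (grey) and the 22 channel genes (purple), with dotted lines at a 2-fold difference. Cacna2d2 is the only channel gene outside the dotted lines, at 1.96 and -0.53.

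Past 2-fold, 1 of 22 channel genes was higher in the knockout array of pair 1, against 1.49% of all genes, and 0 were lower, against 2.58%. In pair 2 none was past 2-fold in either direction (0.254% of all genes higher and 0.405% lower). Taking either pair, 1 of 22 was past 2-fold, against 4.43% of all genes. At 1.5-fold it was 4 of 22, against 15.7% of all genes. Cacna2d2 and Cacnb2 were past 1.5-fold higher in pair 1 (5.51% of all genes) and Cacna1c was lower (8.29%). In pair 2 Cacnb4 was past 1.5-fold higher (1.01% of all genes) and 0 were lower (2.17%).

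Promoter windows of 3 genes are shown, since the account of the pairs turns on them: Cacna2d2, whose pairs were furthest apart, Cacnb4, whose kept probe sets were all lower in pair 1 and then all higher, and Cacna2d1, whose kept probe sets all lay higher in the knockout in both pairs. Each window holds 250 bases before and 50 after a start of the gene, 5′ to 3′ on the gene's strand, from RefSeq on GRCm38.p6, and capitals mark the GC box GGGCGG on either strand.
Cacna2d2, chr9:107399630-107399929, plus strand: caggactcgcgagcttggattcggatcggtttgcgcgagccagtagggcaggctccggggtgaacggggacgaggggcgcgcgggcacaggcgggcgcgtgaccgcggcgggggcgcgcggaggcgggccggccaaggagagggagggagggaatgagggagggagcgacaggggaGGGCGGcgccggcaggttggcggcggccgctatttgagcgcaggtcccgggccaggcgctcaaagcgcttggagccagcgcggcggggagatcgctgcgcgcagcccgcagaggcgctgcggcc
Cacnb4, first of 3 starts listed, chr2:52676094-52676393, minus strand: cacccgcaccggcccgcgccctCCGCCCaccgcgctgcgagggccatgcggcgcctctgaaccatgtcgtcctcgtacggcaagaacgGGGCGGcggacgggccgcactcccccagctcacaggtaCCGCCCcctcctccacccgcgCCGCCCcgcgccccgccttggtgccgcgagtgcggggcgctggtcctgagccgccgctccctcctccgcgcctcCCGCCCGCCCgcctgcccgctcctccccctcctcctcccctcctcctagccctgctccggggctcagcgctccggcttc
Cacna2d1, chr5:15934441-15934740, plus strand: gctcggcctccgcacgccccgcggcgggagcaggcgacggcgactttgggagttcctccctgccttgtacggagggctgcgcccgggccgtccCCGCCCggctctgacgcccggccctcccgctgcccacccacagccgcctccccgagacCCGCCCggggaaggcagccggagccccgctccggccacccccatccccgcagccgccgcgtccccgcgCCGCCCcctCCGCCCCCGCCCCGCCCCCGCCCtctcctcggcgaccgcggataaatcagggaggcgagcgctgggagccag

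These windows held 1, 6 and 7 GC boxes, overlapping copies counted, with 43, 40 and 42 CpG dinucleotides, and no TATAAA or CANNTG on either strand. Windows at the other starts listed for Cacnb4 held 0 GC boxes, with 27 and 5 CpG dinucleotides. The one with 5 held 2 copies of CANNTG. Of the 22 genes, 16 had an entry in the table, with 25 windows, some of which overlap. A GC box lay in 40% of these windows and in 35.7% of all 32851 promoter windows of that length, TATAAA in 8% and 13.6%, and CANNTG (the E-box) in 64% and 72.3%. The median number of CpG dinucleotides was 12 in the channel windows and 7 in all windows. A match of letters is a description of the window and not a bound site.

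Of the sodium channel pores of the brain, Scn2a carries action potentials in young axons, Scn8a takes over at the axon initial segment as neurons mature, Scn3a is prominent before birth, and Scn1a is best known from inhibitory interneurons. Scn2a had a signal of 2740 (control) and 2746 (knockout) in pair 1 and of 834 and 1088 in pair 2. The arrays of pair 1 were thus level at this probe set and the knockout of pair 2 stood higher, by 0.37 against 0.0035, where the pair 1 value was -0.02 with quantile normalization. The other 3 kept probe sets of Scn2a gave -0.10, 0.30 and -1.01 in pair 1 and 0.33, 0.37 and 0.04 in pair 2. All 4 were on the higher side in pair 2, but they disagreed in pair 1 by up to 1.31. The lowest of these values came from 1445259_at, with signals of 258 and 112.

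Scn8a had a signal of 1651 (control) and 2333 (knockout) in pair 1, and of 357 and 299.8 in pair 2. The knockout array was higher in pair 1, by 0.49, and lower in pair 2, by -0.23. Its 4 kept probe sets ran from -0.44 to 0.77 in pair 1 and all lay below 0 in pair 2, from -0.23 to -0.04. Scn3a was represented by a single kept probe set, with signals of 728 and 696 in pair 1 and 390 and 437 in pair 2. Its differences were -0.06 and 0.15.

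For Scn1a the direction depended on which probe set stood for the gene. At 1450121_at the signal was 256 (control) and 201 (knockout) in pair 1 and 180 and 159 in pair 2, lower in the knockout by -0.31 and -0.15. At 1450120_at, the other kept probe set, it was 102 and 155 in pair 1 and 254 and 338 in pair 2, higher by 0.48 and 0.37. Quantile normalization, centring on the 75th percentile and scaling to a common trimmed mean each made the second probe set the representative and so turned both signs. With the block, limma put Scn1a at -0.23 ± 0.19 (SE, n = 2 per group).

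Scn9a, the sodium channel of nociceptive sensory neurons, had the smallest p of the list in the blocked fit. At 1442810_x_at its signal was 145 (control) and 223 (knockout) in pair 1 and 254 and 306 in pair 2. The knockout array was thus higher in both pairs, by 0.52 and 0.24. The blocked limma fit gave 0.38 ± 0.19 (SE, n = 2 per group), with a 95% interval from -0.06 to 0.82. The second kept probe set, 1442809_at, gave -0.53 in pair 1 and 0.18 in pair 2, and with the mean of both the pair 1 difference was -0.0026. The probe sets of Scn9a below the filter gave -0.78, 0.07 and -0.11 in pair 1 and -0.06, 0.16 and 0.14 in pair 2. Scn7a, Scn10a and Scn11a, known mainly from glia or peripheral sensory neurons, stayed below the filter at every probe set.

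Scn1a, Scn2a, Scn3a, Scn9a and Scn7a lie near each other on chromosome 2 in the RefSeq table, with 0 protein-coding genes between Scn3a and Scn2a, 3 between Scn2a and Scn1a, and 0 between Scn1a, Scn9a and Scn7a. The 4 of these genes that were kept did not share a direction as reported: in pair 1 they ranged from -0.31 (Scn1a) to 0.52 (Scn9a), and in pair 2 from -0.15 (Scn1a) to 0.37 (Scn2a). The Scn1a value turned sign with each of the 3 scalings, as above, and all 4 genes were then higher in the knockout in pair 2. Neighbouring genes of this cluster also encode similar pores, and whether a probe set detected more than its own gene was not tested.

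The sodium channel beta subunits are membrane proteins that tune gating and bind adhesion partners. Scn3b had a signal of 7316 (control) and 6934 (knockout) in pair 1 and of 1902 and 1736 in pair 2. The knockout arrays were slightly lower in both pairs, by -0.08 and -0.13, and the pair 2 value became 0.01 with quantile normalization. Its other kept probe set was at -0.02 and 0.23. Scn2b had a signal of 370 and 394 in pair 1 and 231 and 189 in pair 2, at 0.09 and -0.25. All 3 of its kept probe sets lay below 0 in pair 2, from -0.30 to -0.01, while in pair 1 the other 2 were at -0.10 and -0.23. The pair 1 value was -0.09 with the pseudocount at the 40th percentile and -0.08 with probe sets averaged, so its sign there depends on these choices. The blocked limma fit put Scn3b at -0.10 ± 0.15 and Scn2b at -0.08 ± 0.18 (SE, n = 2 per group). Scn4b, which in the adult brain enables resurgent current, stayed below the filter, with signals of 29.6, 2.1, 53.1 and 46.9 on the control and knockout arrays of pair 1 and then of pair 2.

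L-type calcium channels couple activity to gene expression in the cell body. Cacna1c, the main L-type pore of the brain, had a signal of 859 (control) and 510 (knockout) in pair 1, and of 237 and 257 in pair 2. The knockout array was lower in pair 1, by -0.72, and about level in pair 2, at 0.10. Its other kept probe set was level in pair 1 (373 and 371, a difference of -0.0053) and at 0.22 in pair 2. Both probe sets thus had a lower knockout in pair 1 and a higher one in pair 2, but of very unequal size in pair 1. For Cacna1c the blocked limma fit gave -0.31 ± 0.22 (SE, n = 2 per group), with a 95% interval from -0.84 to 0.22. Cacna1d, the L-type pore that opens at less depolarized potentials, had signals of 1039 and 1232 in pair 1 and 192 and 224 in pair 2, higher in the knockout by 0.24 and 0.19. Its second kept probe set gave -0.49 in pair 1 and 0.13 in pair 2. Blocked, limma gave Cacna1d a difference of 0.22 ± 0.16 (SE, n = 2 per group), with a 95% interval from -0.17 to 0.60. Cacna1f and Cacna1s, the pores of retina and skeletal muscle, stayed below the filter. Cacna1f had signals of 105 and 16.0 in pair 1 and 60.5 and 61.3 in pair 2, so pair 1 was far apart and pair 2 level, on dim signals.

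The presynaptic pores are Cacna1a (P/Q-type) and Cacna1b (N-type), which drive transmitter release, and Cacna1e (R-type). Cacna1b had a signal of 1186 (control) and 1440.4 (knockout) in pair 1 and of 451 and 405 in pair 2. All 4 of its kept probe sets were higher in the knockout in pair 1, from 0.08 to 0.88, and in pair 2 they ran from -0.16 to 0.08. Cacna1a had signals of 254 and 267 in pair 1 and 96.0 and 105 in pair 2, at 0.07 and 0.10. Its pair 2 sign turned to -0.19, -0.14 and -0.11 with the 3 scalings, each of which made another probe set the representative.

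Cacna1e had a signal of 1418 (control) and 1476 (knockout) in pair 1, and of 406 and 586 in pair 2. The knockout of pair 1 was level with its control, at 0.06, and that of pair 2 was higher by 0.49. Both kept probe sets were on the higher side in both pairs, the second at 0.40 and 0.17. In limma's blocked fit Cacna1e was at 0.28 ± 0.18 (SE, n = 2 per group), with a 95% interval from -0.15 to 0.70. The T-type pores open near rest and support burst firing. Cacna1g had signals of 542 and 682 in pair 1 and 189 and 163 in pair 2, at 0.32 and -0.18. Cacna1h had signals of 1670.1 and 1734 in pair 1 and 171 and 175 in pair 2, and its differences of 0.05 and 0.02 were the smallest of the 22 genes in both pairs together.

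The alpha2delta subunits, extracellular proteins that raise the number of calcium channels at the membrane, held the largest difference of the 22 genes. Cacna2d2 had a signal of 37.5 (control) and 241 (knockout) in pair 1, and of 234 and 152 in pair 2. The control was the lower array in pair 1 and the higher one in pair 2. The differences were 1.96 and -0.53 on the scale with the pseudocount. The control signal of 37.5 is close to the pseudocount of 32.56, and the pair 1 difference was 1.57 with the pseudocount at the 40th percentile, 1.60 to 1.61 with the 3 scalings and 2.68 with no pseudocount. For Cacna2d2 the blocked limma fit gave 0.72 ± 0.52 (SE, n = 2 per group), with a 95% interval from -0.52 to 1.95. Only 1450754_at of its 3 probe sets passed the filter, and the others differed by 0.12 and -0.42 in pair 1. Without the control array of replicate 1, the fitted difference of Cacna2d2 in limma's fit without the block was -0.25. That fit sets the control array of replicate 2 against knockout arrays on both scales, so the value mixes scale with genotype. Ranked within its own array, Cacna2d2 lay at percentile 23.7 on the control and 61.1 on the knockout of pair 1, and at 81.0 and 71.7 in pair 2.

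Cacna2d2 was higher in the knockout of pair 1 and lower in that of pair 2, as 26.1% of all genes tested were. Markers of GABAergic interneurons mostly had these signs. Of 8 measured, 7 were higher in the knockout of pair 1 (median 0.28) and 8 were lower in pair 2 (median -0.75). Their summed signal was 9409 and 4047 on the control arrays of replicates 1 and 2, and 11554 and 2330 on the knockout arrays. Gad2, which makes GABA at synapses, was at 1.14 and -0.16, and Dlx1 at 0.33 and -1.03. Of 6 astrocyte markers, 5 were higher in pair 1 and 6 were lower in pair 2 (medians 0.47 and -0.39), with summed signals of 8339 and 4588 on the control and 12349 and 2977 on the knockout arrays. The medians of the neuronal (0.19 and -0.04), oligodendrocyte (0.19 and -0.04) and microglial (0.06 and -0.24) lists had these signs too. Those of the other cell type lists did not. The part of any of these cells in the Cacna2d2 values was not tested. In tissue RNA such as this, fewer cells of a type and less RNA per cell cannot be told apart.

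Cacna2d1 had the same sign at every kept probe set. It had a signal of 1616 (control) and 1822 (knockout) in pair 1 and of 602 and 736 in pair 2. The knockout array was higher in both pairs, by 0.17 and 0.28, and all 3 kept probe sets had this sign, from 0.06 to 0.64 in pair 1 and from 0.21 to 0.28 in pair 2. In limma's blocked fit this was 0.22 ± 0.16 (SE, n = 2 per group), with a 95% interval from -0.16 to 0.61, so it did not pass. Its 2 probe sets below the filter gave 1.32 and -0.98 in pair 1. Cacna2d3 had signals of 2640 and 3084 in pair 1 and 510 and 468 in pair 2, at 0.22 and -0.12. Cacna2d4, a subunit known from the retina, stayed below the filter at all 3 probe sets.

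The calcium channel beta subunits sit on the inner face of the pore and bring it to the membrane. Cacnb4, the main beta subunit of the mature brain, had a signal of 961 (control) and 899 (knockout) in pair 1, and of 192 and 315 in pair 2. The knockout was slightly lower in pair 1, at -0.09, and higher in pair 2, at 0.63, the highest pair 2 value of the 22 genes. The other 2 kept probe sets had the same signs, with -0.29 and -0.20 in pair 1 and 0.58 and 0.21 in pair 2. In limma's blocked fit Cacnb4 was at 0.27 ± 0.21 (SE, n = 2 per group), with a 95% interval from -0.23 to 0.77.

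Cacnb2 had a signal of 207 (control) and 370 (knockout) in pair 1, and of 77.7 and 72.6 in pair 2, at 0.75 and -0.07. Its other kept probe set went the other way, at -0.64 and 0.26. The 2 kept probe sets of Cacnb2 thus lay 1.39 apart in pair 1, the widest gap between kept probe sets of any channel gene. Blocked, limma gave Cacnb2 a difference of 0.34 ± 0.27 (SE, n = 2 per group). Cacnb1, the beta subunit of muscle that is also made in brain, had signals of 458 and 626 in pair 1 and 106 and 89.2 in pair 2, at 0.42 and -0.19. Its pair 2 value turned to 0.12, 0.10 and 0.13 with the 3 scalings, which made another probe set the representative. The skeletal and cardiac muscle list was dim, with 3 of 8 markers above the filter. Its median was 0.65 in pair 1, where 3 of 8 were over 2-fold higher in the knockout, and 0.01 in pair 2, and its part in the Cacnb1 values was not tested.

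The HCN channels differed little within pairs. Hcn2, the widespread isoform of the brain, had a signal of 405 (control) and 464 (knockout) in pair 1 and of 221 and 225 in pair 2, at 0.18 and 0.02. Hcn3 had signals of 1051 and 1200.5 in pair 1 and 192 and 208 in pair 2, at 0.19 and 0.10. Blocked, limma put Hcn2 at 0.10 ± 0.17 and Hcn3 at 0.14 ± 0.16 (SE, n = 2 per group). Each was measured by a single probe set.

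Probe sets of the same gene gave a second reading of each array. Of the 22 genes, 16 had several kept probe sets, 43 in all. In pair 1 all kept probe sets of a gene had the same sign for 7 of 16 genes (43.8%, against 43.6% of 5962 such genes on the array), and in pair 2 for 10 of 16 (62.5%, against 59.0%). The median range between probe sets of a gene was 0.72 in pair 1 and 0.27 in pair 2, against 0.42 and 0.15 over all such genes. For 2 genes, Cacna2d1 and Cacna1e, all kept probe sets were higher in the knockout in both pairs (12.5% of 16, against 5.8% of all such genes), and for 0 genes all were lower in both. For Cacnb4 and Cacna1c every kept probe set was below 0 in pair 1 and above 0 in pair 2. Cacna1c was so only by a nearly level pair 1 value of -0.0053 at 1421297_a_at. All kept probe sets opposed each other between the pairs, in either order, for 12.5% of the 16 genes and 17.8% of all such genes. These 4 genes are named for a pattern seen in these values, which is not a test.

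**Figure D3:**
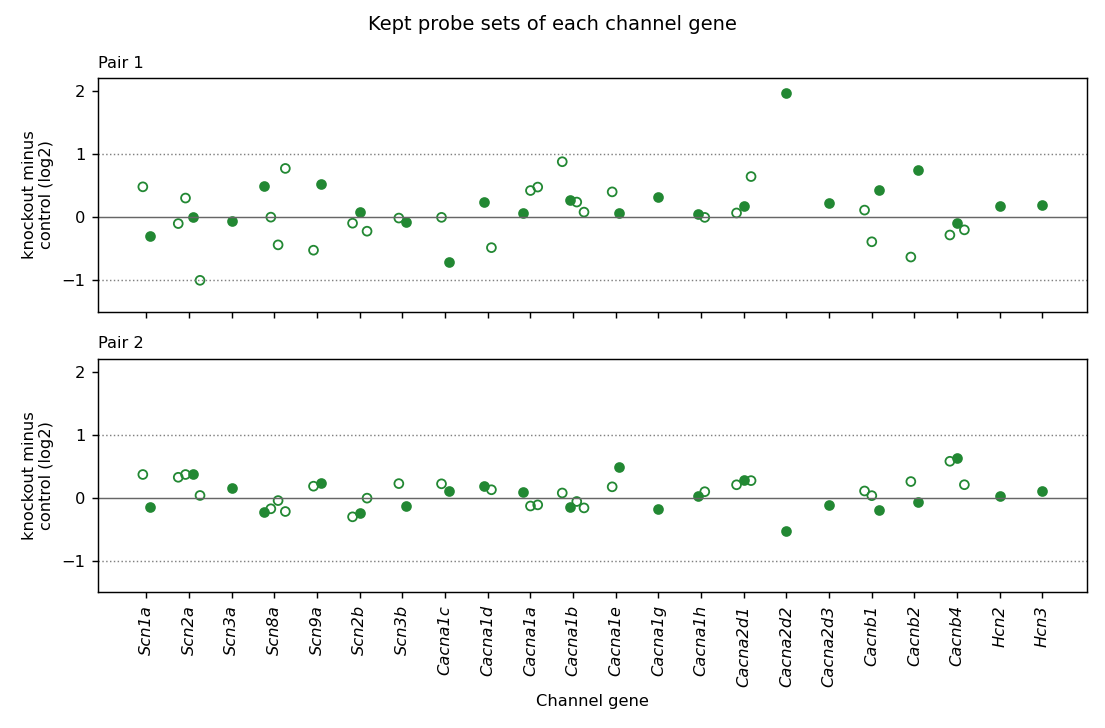
Difference between knockout and control (log2) for each of the 49 kept probe sets, by gene, in pair 1 (top) and pair 2 (bottom); filled points are the brightest probe set of a gene and open points the others, with dotted lines at a 2-fold difference. The points of a gene spread further in pair 1 (median range 0.72) than in pair 2 (0.27), and Cacna2d1 lies above 0 throughout.

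The 23 probe sets below the filter had signals from 1.9 to 125 on the replicate 1 arrays and from 18.1 to 78.4 on the replicate 2 arrays. Of these, 4 were over 2-fold apart in pair 1 and 0 in pair 2, and their differences ran from -1.5 to 1.32 in pair 1 and from -0.19 to 0.16 in pair 2. Of those 4, Cacna1f (-1.5) and single probe sets of Scn7a (-1.42) and Cacna2d4 (-1.28) were lower in the knockout, and one of Cacna2d1 (1.32) was higher. Of the 49 kept probe sets, 2 were over 2-fold apart in pair 1 (Cacna2d2 and 1445259_at of Scn2a) and 0 in pair 2. The share over all kept or all dim probe sets was not counted, so these counts are a description only. Counted by gene, 1.49% of all genes tested were over 2-fold higher and 2.58% lower in pair 1.

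Partners of these channels were examined in the same fits: axon initial segment anchors, intracellular FGFs, gamma subunits, the sodium leak complex, calcium channel regulators, the HCN partner Pex5l and ubiquitin ligases. Of 28 such genes that passed the filter, limma called 0 in either direction without or with the block, against 0% of all genes in both fits. The pairs opposed each other for 20, or 71.4%, against 53.5% of all genes. Their median was 0.14 in pair 1 and -0.02 in pair 2. Past 2-fold, 2 of 28 were higher in the knockout of pair 1, against 1.49% of all genes, and 0 in pair 2, against 0.254%.

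Those 2 were Pex5l, which controls the trafficking of HCN channels, and Cacng7, a regulator of AMPA receptors. Pex5l had signals of 159 (control) and 369 (knockout) in pair 1 and 76.3 and 56.3 in pair 2, at 1.07 and -0.29. Cacng7 had signals of 122 and 284 in pair 1 and 166 and 153 in pair 2, at 1.03 and -0.10. Neither had the same sign in both pairs. Besides Cacng7 and Pex5l, the smallest unadjusted p values of the list in limma's fit without the block belonged to Stac2, at -0.37 ± 0.79, and Cabp1, at 0.31 ± 0.73 (SE, n = 2 per group). These SEs include the scale difference between replicate numbers, and with the block they were 0.31 for Stac2 and 0.34 for Cabp1. Stac2, an adaptor of L-type channels, was at -0.82 in pair 1 and 0.07 in pair 2, and Cabp1, a calcium sensor, at 0.81 and -0.20. A further 3 partners are named after their values were seen. Fgf13, which binds sodium channels and microtubules, was at 0.73 and -0.36, Ank3, the anchor of the axon initial segment, at 0.54 and -0.19, and Rims2, a release-site scaffold, at -0.56 and 0.43. The partners named so far all had opposite signs in the pairs. Of the 28, 5 were higher in both pairs (22.4% of all genes) and 3 lower in both (24% of all genes). Among these were Nfasc, at 0.34 and 0.15, and Sptbn4, at -0.56 and -0.007. In limma's blocked fit their unadjusted p values were the smallest of the list after that of Cacng7.

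**Figure D4:**
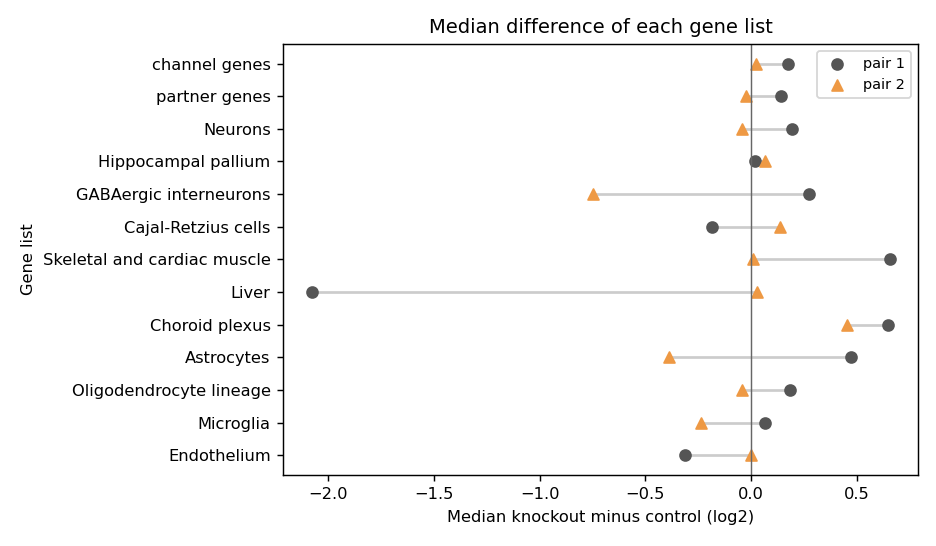
Median difference between knockout and control (log2, horizontal axis) of the channel genes, their partners and 11 lists of cell type markers (vertical axis), with circles for pair 1, triangles for pair 2 and grey lines joining them. The channel medians of 0.18 and 0.02 lie near those of the neuronal list (0.19 and -0.04), while the liver list lies at -2.08 in pair 1 and 0.03 in pair 2.

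Lists of other cell types were measured on the same arrays. The 7 neuronal markers had medians of 0.19 and -0.04, with 5 and then 3 of them higher in the knockout. Of 6 choroid plexus markers 5 were higher in each pair (medians 0.65 and 0.46), and Cajal-Retzius markers had medians of -0.18 and 0.14. All 8 liver markers were over 2-fold lower in the knockout of pair 1 and none was in pair 2. Their part in the pair 1 values of the channel genes was not tested.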

How the data were processed

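Signal intensities of 45037 probe sets on 4 Affymetrix arrays were used as deposited, on a linear scale. Per the submitters' processing notes, the authors used MAS5 for these intensities; the version, scaling target and detection calls are not given in the sources used here. Probe sets were named from the platform annotation where it gave 1 gene symbol (34945), and 932 with several and 9160 with none were left unnamed; 34741 matched a RefSeq gene by Entrez ID and 0 symbols were updated.

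Signals were taken as log2(signal + 32.56), the 20th percentile of all values. Probe sets with a mean log2 value above the 40th percentile were kept (27022), and the brightest kept probe set represented a gene (12581 genes). Knockout minus control was tested with lmFit and eBayes (trend) of limma 3.58.1 in R 4.3.3 and adjusted by Benjamini-Hochberg over all genes, with no covariate, and with the replicate number as a block as an alternative. The fits were checked on simulated data. Residual degrees of freedom were 2 and 1, and eBayes added 5.96 prior degrees of freedom with the block. The SEs given are the moderated ones. Deviations of same-numbered arrays correlated at 0.826 across genes, and Spearman's rho was 0.926 and 0.986 within replicate numbers against 0.818 to 0.832 across them; no label says what a number marks. Without the block the scale difference enters each SE.

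The members and lists were chosen with earlier results of these data known. Channel genes with the 5 smallest p per direction in either fit, and any over 2-fold apart in a pair, were named with their fits. Fits of Hcn2 and Hcn3 were given besides. The 4 partners of smallest p were named. No depth applies to arrays; their number limits the precision. The alternatives were other scalings, pseudocounts, filters, ways to combine probe sets, eBayes settings, the block and leaving out each array.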

Additional observations from a re-analysis of the deposited data

How the results depend on the processing

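The number of arrays and dim signals limit these results. Under all 16 alternatives tried, the replicate block among them, limma called 0 channel genes and 0 partner genes. Most of these fits had no block and kept the scale difference between replicate numbers in each SE, so their counts add little to the blocked one. Over 2-fold apart in a pair were 2 of 29 channel genes with no filter and 0 of 21 with the filter at the 60th percentile. With every kept probe set it was 2 of 49 probe sets. The share over all genes was not counted under these settings, so these counts are a description only. At 1.5-fold, with the filter as reported, it was 4 of 22 genes, against 15.7% of all genes. With every kept probe set, 27 of 49 had opposite signs in the pairs, against 53.6% of all kept and named probe sets, and the pair 1 median was 0.066. With no filter the pair 2 median was -0.0018. The fitted Scn1a difference of -0.23 turned to 0.45 with quantile normalization, 0.38 with centring on the 75th percentile, 0.40 with a common trimmed mean, 0.37 with the pseudocount at the 40th percentile and 0.097 with the mean of probe sets, and the last turned Scn3b to 0.00059. Leaving out 1 array in turn leaves a group on a single scale and so turned the sign of most named genes, with ranges as follows. Cacna1c ran from -1.17 to 0.56, Cacna1d ran from -0.94 to 1.37, Cacna1e ran from -0.59 to 1.14, Cacna2d1 ran from -0.47 to 0.91, Cacna2d2 ran from -0.25 to 1.68. Cacnb2 ran from -0.63 to 1.31, Cacnb4 ran from -0.81 to 1.34, Scn2b ran from -0.55 to 0.39, Scn3b ran from -1.09 to 0.89. Scn1a ran from -0.45 to -0.011 and Scn9a from 0.035 to 0.73 without turning. Over the 11 named genes, under the alternatives that give a value per gene, 141 fitted values kept their sign and 23 turned; none passed the test. Over the 8 settings with a value per gene, 9 of 22 genes turned sign in either pair.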
